A study of Mus musculus with 6 samples.

Results

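The 39 genes described here encode proteins of the neuronal cytoskeleton, the synapse and the axon surface, with a few further proteins enriched in nerve cells. They were chosen by name, and each was read at the probe set that carries its symbol alone. Where a gene had several such probe sets, the brightest by mean log2 signal over the 6 arrays was taken. All 39 had a probe set, out of 12393 genes measured in this way, and the 39 genes held 64 of the 22626 probe sets tested.

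RNA was taken from newborn mouse lenses at postnatal day 1. The wild type lenses came from 3 mice of the NMRI background and the Pax6 heterozygous lenses from 3 Pax6lacZ/+ mice, in which lacZ replaces 1 copy of Pax6, and each sample held the 2 lenses of a mouse. Replicates of the same number in the 2 genotypes varied together and are called pairs below.

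Neurons send electrical signals along axons built on neurofilaments and neuronal tubulin, and pass them on at synapses, where vesicles loaded with transmitter fuse with the membrane through SNARE proteins. The lens contains no nerve cells, but lens fibers are long, thin cells, and they are known to use some proteins that are otherwise typical of neurons. In non-neuronal cells many such genes are held silent by REST, a repressor that binds a DNA element called RE1.

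Signals are intensities on the linear scale, and differences are on the log2 scale, Pax6 heterozygous minus wild type, with the standard error (SE) of limma. Signals of different genes depend on their probes and are not ranked. The medians of the 6 arrays lay between 21.4 and 22.8. The 31 measured olfactory receptor genes, picked once their values were known, mark the background and had median signals between 8.16 and 13.4. The tissue label was checked with 16 lens markers such as crystallins. Of the 13 measured, 11 had a median signal of at least 50, and their summed signal lay between 94849 and 116279 in the 6 samples, with overlap of the genotypes.

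Most of the neuronal genes were dim in the newborn lens of both genotypes. Of the 39, 12 had a median signal of at least 50, which is 30.8% against 44.8% of all genes, and 27 were under 50. The median of 11 was at or below the highest olfactory receptor median, which is 28.2% against 34.1% of all genes. At the brightest probe set, signals far above that background in all 6 samples were seen for Pcp4, Basp1, Uchl1, Nrcam, Dpysl3, Vamp2 and Snap25. The dim genes included defining genes of neurons, such as the axonal microtubule protein tau (Mapt), the dendritic protein Map2, the medium and heavy neurofilament chains and synaptotagmin.

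**Figure D1:**
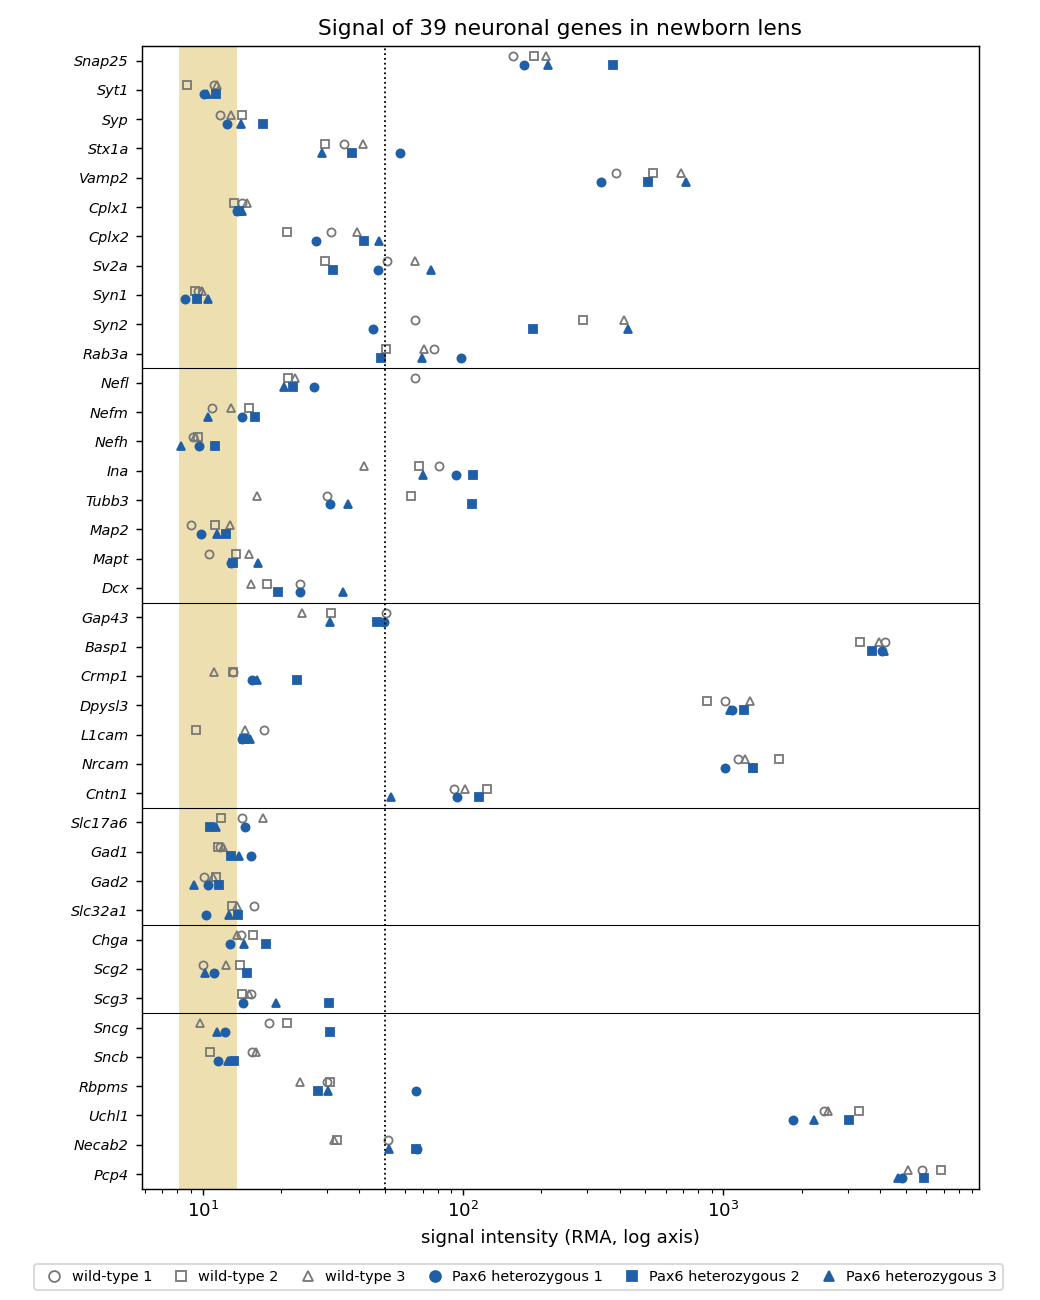
Signal intensity on a log axis of the 39 genes in each of the 6 samples, with open gray symbols for wild type and filled blue symbols for Pax6 heterozygous lenses. The shaded band spans the median signals of the olfactory receptor genes (8.16 to 13.4), the dotted line is at 50, and 12 genes have their median at or above it.

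No neuronal gene passed the test between the genotypes. The smallest adjusted p of limma among the 39 was 1.00, and over all probe sets 0 of 22626, a share of 0%, had an adjusted p under 0.05. At an unadjusted p under 0.05, 2 of the 39 were higher in heterozygous lenses, Necab2 and Crmp1, and 0 were lower. These are 5.13% and 0% of the genes, beside a background of 1.12% of all genes higher and 1.12% lower. The count higher was 0 without wild type replicate 3 and 0 without heterozygous replicate 2.

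With the replicate number as a block, 4 genes were higher at an unadjusted p under 0.05, Necab2, Crmp1, Ina and Tubb3, and 0 were lower, beside 5.31% and 4.52% of all genes. None of the 39 had an adjusted p under 0.05 in that fit, in which 2 of 22626 probe sets (0.00884%) did. The SE was smaller with the block for all 39 genes, as for 99.6% of all genes, with a median ratio of 0.70 against 0.71. With the methods' t-test (log2 values) at an unadjusted p under 0.10, 3 genes were higher, Necab2, Crmp1 and Gad1, beside 2.44% of all genes, and 0 were lower, beside 3.44%. After adjustment that test called 0% of the probe sets.

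The differences of the 39 genes ran from -0.46 to 0.69, with a median of 0.06, where the median over all genes was -0.01. Of the 39, 25 lay above 0, or 64.1% against 47.0% of all genes. The 12 brighter genes had a median of 0.00 with 6 above 0, and the 27 dimmer genes a median of 0.07 with 19 above 0. The pairs differed in this, since the median was 0.00 in pair 1, 0.14 in pair 2 and 0.05 in pair 3. Heterozygous replicate 2 was the highest of the 6 samples for 12 of the 39 genes (30.8%), and for 15.9% of all genes. It was the highest for 2 of the 12 brighter genes (16.7%) and for 10 of the 27 dimmer genes (37.0%).

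The counts over pairs and over groups that do not overlap carry no test. In 3 of 3 pairs, 8 genes were higher in the heterozygous lens, namely Snap25, Syp, Ina, Tubb3, Dcx, Crmp1, Gad1 and Necab2, beside 14.4% of all genes. The count was 6 under quantile normalization, median centring or the mean of a gene's probe sets. For Dcx the difference in pair 1 was 0.00 when rounded, and a second probe set of Syp, like the first near background, was lower in 3 of 3 pairs, at -0.16. Uchl1 and Pcp4 were lower in 3 of 3 pairs, beside 17.6% of all genes. The 3 heterozygous signals lay above all 3 wild type signals for Necab2, Crmp1 and Gad1, beside 2.57% of all genes, and below them for 0 genes, beside 3.49%. A second probe set of Gad1, like the first near background, overlapped between genotypes and was lower in pair 3, at -0.27.

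**Figure D2:**
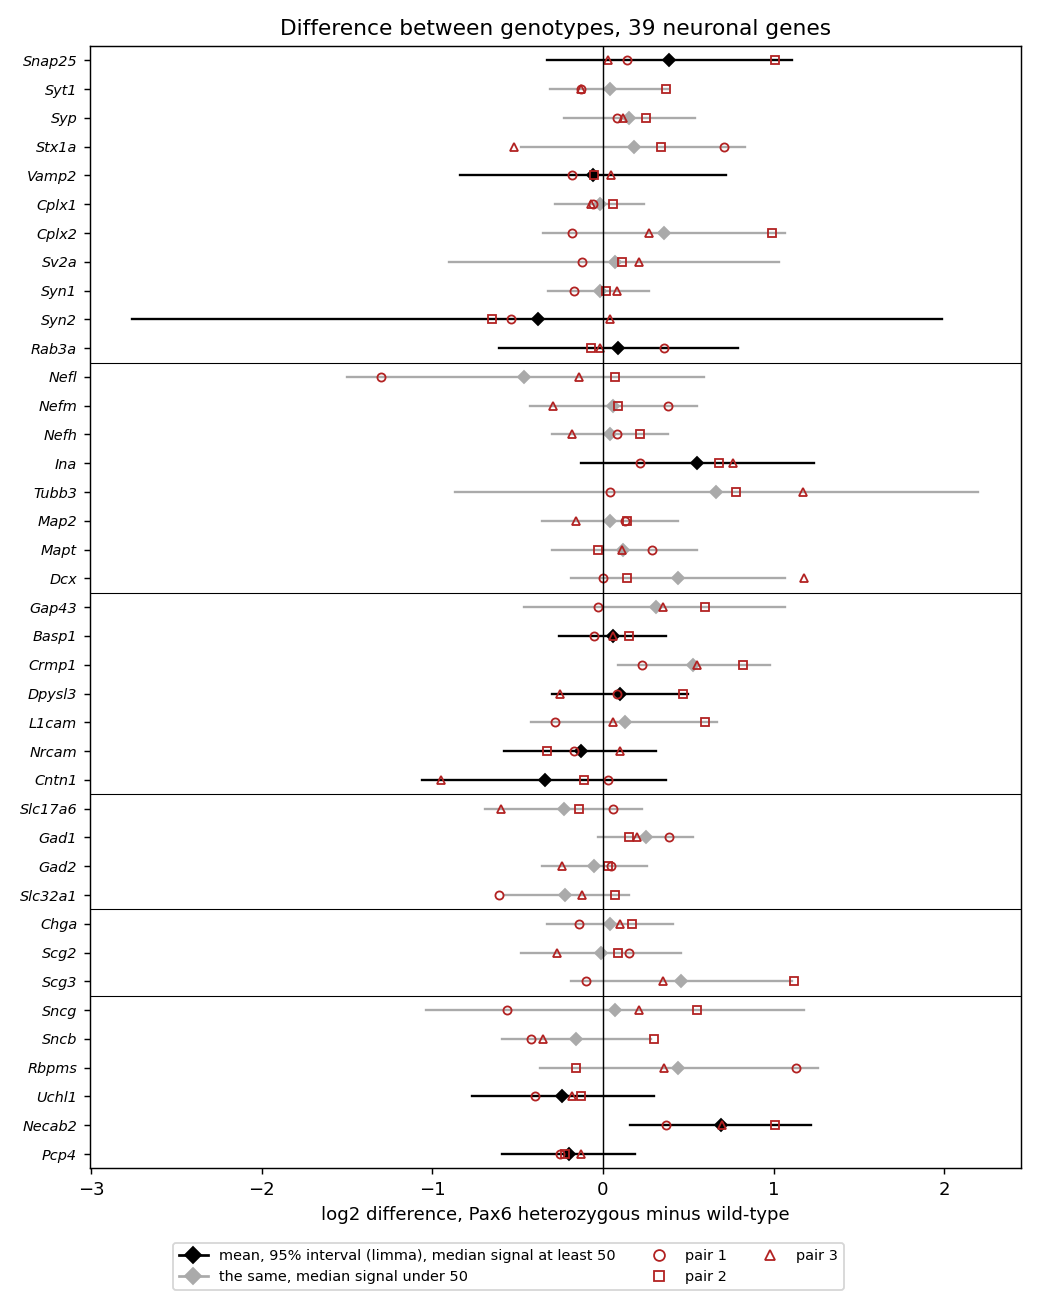
Log2 difference of each of the 39 genes, Pax6 heterozygous minus wild type, with its 95% interval from limma (black for a median signal of at least 50, gray below) and the differences of the 3 same-numbered pairs in red. The intervals of Necab2 and Crmp1 lie above 0 before adjustment, and those of the other genes span 0.

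Promoters are shown for the 3 genes that hold an exact part of RE1, the element through which REST acts on neuronal genes. Windows of 250 bases before and 50 bases after the start were at hand from RefSeq (GRCm38.p6) for 30 of the 39 genes. The left part of RE1, TTCAGCACC, was searched on both strands and occurred in Scg2 and Syn1, and in 0.433% of the 27025 genes with a window. The right part, GGACAGCGC, occurred in Gad2, and in 0.477% of those genes. Capitals below mark the letters that match the 2 parts, each element being read 5′ to 3′ on the strand that holds it and placed from the start of the gene, whose first base is counted as 0.
Scg2, chr1:79440025-79440042, on the strand opposite to the gene, from base -16 to base 1: TTCAGCACCGGACAGCtC
Gad2, chr2:22622161-22622180, on the strand of the gene, from base -166 to base -147: ggtAGCACCctGGACAGCGC
Syn1, chrX:20921131-20921150, on the strand of the gene, from base -232 to base -213: TTCAGCACCgcGGtCAGaGC
The Scg2 element differed from the 2 parts at 1 letter, the Syn1 element at 2 and the Gad2 element at 3. The bases between the parts are not counted in this, and numbered 0 in Scg2 and 2 in Gad2 and in Syn1. These 3 genes were near the olfactory receptor signals in both genotypes, with differences of -0.01 ± 0.20 for Scg2, -0.05 ± 0.13 for Gad2 and -0.02 ± 0.12 for Syn1. A match of letters is a description and does not show binding.

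REST itself was measured in every sample, at 177, 265 and 238 in wild type and 187, 225 and 267 in heterozygous lenses. The genotypes overlapped, with a difference of 0.00 ± 0.21. Of 11 genes listed for REST and its partners, 10 were measured, 0 had an unadjusted limma p under 0.05, and their median difference was 0.01. With the block 1 did, the corepressor Rcor2, at 22.1, 24.4 and 26.1 in wild type and 27.6, 36.9 and 28.4 in heterozygous lenses. The genotypes did not overlap, and the difference was 0.35 ± 0.15 (limma adjusted p = 0.509 with the block). Pax6, the gene altered in these mice, was read at the brightest of its 5 probe sets. It gave 1169, 1760 and 963 in wild type and 942, 1170 and 882 in heterozygous lenses, a difference of -0.34 ± 0.24. It was lower in each pair, while the genotypes overlapped, and its 95% interval ran from -0.93 to 0.25 without the block and from -0.64 to -0.04 with it (limma adjusted p = 0.509). The study reports less Pax6 RNA in heterozygous lenses, both by these arrays and by quantitative RT-PCR.

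The synaptic vesicle and release genes numbered 11, of which 4 had a median signal of at least 50, and 7 had a difference above 0. Snap25, a SNARE protein of the presynaptic membrane, gave 155, 187 and 209 in wild type and 172, 375 and 212 in heterozygous lenses. Its heterozygous replicate 2 stood far above the other samples, which overlapped. The difference was 0.39 ± 0.30, with a 95% interval from -0.33 to 1.11. Vamp2, the SNARE protein on the vesicle, gave 386, 535 and 688 in wild type and 340, 515 and 715 in heterozygous lenses. It followed the replicate number more than the genotype, with a difference of -0.06 ± 0.32, and ± 0.10 with the block. A second probe set of Vamp2 had a median signal of 27.4 and a difference of -0.10 ± 0.48.

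Syn2, encoding synapsin II on the vesicle surface, varied more with the replicate number than any of the other 38 genes. Its signals were 65.1, 290 and 416 in wild type and 44.9, 185 and 428 in heterozygous lenses. Replicate 1 was low and replicate 3 high in both genotypes, so that the range over the replicate numbers was 2.96 on the log2 scale. Over the 39 genes this range had a median of 0.43, and over all genes 0.35. The difference was -0.38 ± 0.99 without the block and ± 0.16 with it. A second probe set of Syn2 gave 22.0, 161 and 80.6 in wild type and 12.7, 95.7 and 68.2 in heterozygous lenses. It was lower in 3 of 3 pairs and lowest in replicate 1, with a difference of -0.60 (limma adjusted p = 0.364 with the block).

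Rab3a, a small GTPase of synaptic vesicles, gave 77.0, 50.8 and 70.5 in wild type and 98.6, 48.5 and 69.4 in heterozygous lenses. The genotypes overlapped, with a difference of 0.09 ± 0.29. Sv2a, a vesicle membrane protein, gave 50.9, 29.4 and 65.3 in wild type and 47.0, 31.7 and 75.5 in heterozygous lenses. Here too the replicates kept the same order in both genotypes, and the difference was 0.07 ± 0.40, or ± 0.11 with the block. Stx1a, syntaxin of the presynaptic membrane, had mean signals of 35.2 ± 5.74 and 41.1 ± 14.6 (SD, n = 3) in wild type and heterozygous lenses, in that order, and Cplx2, a complexin that clamps vesicle fusion, of 30.5 ± 9.10 and 38.8 ± 10.3. The vesicle protein synaptophysin (Syp), the calcium sensor Syt1, Cplx1 and Syn1 had genotype means between 9.50 and 14.5, with differences from -0.02 to 0.15.

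The neurofilament, tubulin and microtubule genes numbered 8, with 7 differences above 0 and 1 median signal of at least 50, that of Ina. Ina, encoding the neurofilament protein internexin alpha, gave 80.6, 67.7 and 41.5 in wild type and 93.6, 109 and 70.4 in heterozygous lenses. Each heterozygous sample was above its pair, by 0.22, 0.68 and 0.76, while the genotypes overlapped. The difference was 0.55 ± 0.29 with a 95% interval from -0.13 to 1.24, and with the block ± 0.14 with an interval from 0.22 to 0.89 (limma adjusted p = 0.382). The other 2 probe sets of Ina lay between 8.58 and 12.9 in all samples, near the olfactory receptor signals, and had differences of 0.18 and 0.15.

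Tubb3, the beta tubulin used as a marker of young neurons, gave 30.0, 63.0 and 16.1 in wild type and 30.9, 108 and 36.3 in heterozygous lenses. Replicate 2 was the brightest in both genotypes, and the genotypes overlapped. The difference was 0.66 ± 0.64, and ± 0.21 with the block (limma adjusted p = 0.474), with 0.04, 0.78 and 1.17 in the pairs. Its promoter window holds the letters TTCACGC, the core of a site read by the paired domain of Pax6, from base 40 to base 46 on the strand opposite to the gene. This core was added once the values were known, and was found in 1.48% of the genes with a window and in no other of the 30.

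Dcx, a microtubule protein of migrating neurons, gave 23.6, 17.6 and 15.3 in wild type and 23.6, 19.4 and 34.7 in heterozygous lenses. Heterozygous replicate 3 stood apart from the overlapping others. Its difference was 0.44 ± 0.26, but 2 of its 3 other probe sets, all between 8.90 and 12.5, had differences below 0. Nefl, the light neurofilament chain, gave 65.5, 21.2 and 22.6 in wild type and 26.7, 22.2 and 20.6 in heterozygous lenses. Wild type replicate 1 alone was high, and the difference of -0.46 ± 0.43 became 0.07 without it. Nefm, Nefh, Map2 and Mapt had genotype means between 9.38 and 14.1 and differences between 0.04 and 0.12.

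**Figure D3:**
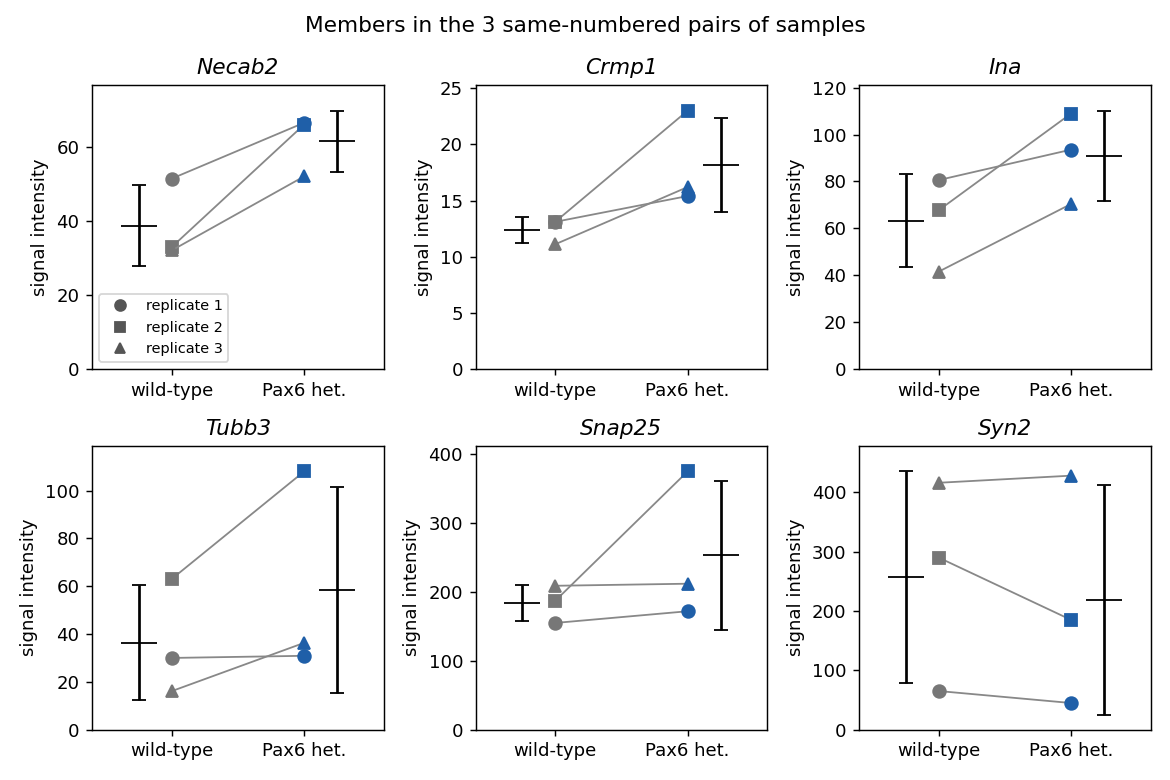
Signal intensity (linear axes from 0) of Necab2, Crmp1, Ina, Tubb3, Snap25 and Syn2, with gray lines joining same-numbered samples and bars giving the mean and SD of 3 samples. The genotypes do not overlap for Necab2 and Crmp1, heterozygous replicate 2 is highest for Crmp1, Ina, Tubb3 and Snap25, and Syn2 spreads more with the replicate number than with the genotype.

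Of the 7 growth cone and axon adhesion genes, 4 had a median signal of at least 50, and 5 had differences above 0. Basp1, a membrane protein of growth cones, gave 4183, 3340 and 3956 in wild type and 4053, 3716 and 4126 in heterozygous lenses. The genotypes overlapped almost fully, with a difference of 0.06 ± 0.13 and a 95% interval from -0.26 to 0.37. Dpysl3, a collapsin response mediator that acts on the axonal skeleton, gave 1013, 865 and 1262 in wild type and 1074, 1199 and 1060 in heterozygous lenses. Its difference was 0.10 ± 0.17, and the heterozygous samples lay within the wild type range. The other probe sets of Dpysl3 were dim, with median signals of 16.0 and 10.4 and differences of 0.07 and -0.14.

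Crmp1, a relative of Dpysl3, gave 13.1, 13.1 and 11.1 in wild type and 15.4, 23.0 and 16.2 in heterozygous lenses. The 3 heterozygous samples were above the 3 wild type samples, but all except replicate 2 were near the highest olfactory receptor median of 13.4. The means were 12.4 ± 1.14 and 18.2 ± 4.19 (SD, n = 3). The difference was 0.53 ± 0.19, with a 95% interval from 0.09 to 0.98 (limma adjusted p = 1.00, and 0.395 with the block).

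Nrcam, an adhesion protein of axons, gave 1141, 1631 and 1205 in wild type and 1017, 1298 and 1295 in heterozygous lenses, with overlap and a difference of -0.13 ± 0.19. Cntn1, the axonal adhesion protein contactin, gave 92.6, 124 and 102 in wild type and 94.6, 115 and 53.1 in heterozygous lenses. Heterozygous replicate 3 was low and the other samples overlapped, with a difference of -0.34 ± 0.30. Gap43, a growth cone protein of regenerating axons, had means of 35.3 ± 13.9 and 42.5 ± 10.2 (SD, n = 3), and L1cam, a neural adhesion protein, of 13.8 ± 3.94 and 14.6 ± 0.543, in wild type and heterozygous lenses.

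The 4 genes of transmitter synthesis and loading all had medians at or below the highest olfactory receptor median. Gad1, which makes the transmitter GABA, gave 11.7, 11.5 and 12.0 in wild type and 15.3, 12.8 and 13.8 in heterozygous lenses. The genotypes did not overlap, within a range at the edge of background, and the difference was 0.25 ± 0.12, with a 95% interval from -0.03 to 0.53. A second probe set of Gad1 gave 9.26, 10.5 and 9.72 in wild type and 11.3, 12.9 and 8.07 in heterozygous lenses. Its genotypes overlapped, with a difference of 0.11 ± 0.19. Gad2, the other GABA enzyme, Slc32a1, which loads GABA into vesicles, and Slc17a6, which loads glutamate, had differences of -0.05, -0.22 and -0.23.

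The 3 secretory granule genes were also dim, and each was highest in heterozygous replicate 2. Scg3, a granin of dense-core vesicles, gave 15.3, 14.1 and 15.0 in wild type and 14.3, 30.5 and 19.2 in heterozygous lenses. Heterozygous replicate 2 stood apart, and the difference was 0.46 ± 0.27. Chga (chromogranin A) and Scg2 had genotype means between 12.0 and 14.9 and differences of 0.04 and -0.01.

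The 6 other neuronal proteins held the gene with the smallest p of the 39 and also 2 of the bright genes that were lower in each pair. Necab2, a neuronal calcium-binding protein, gave 51.4, 32.9 and 32.0 in wild type and 66.5, 66.0 and 52.0 in heterozygous lenses. Each heterozygous sample was above every wild type sample, although wild type replicate 1 and heterozygous replicate 3 were nearly equal. The means were 38.7 ± 11.0 and 61.5 ± 8.25 (SD, n = 3), a ratio of 1.59. The difference was 0.69 ± 0.22 with a 95% interval from 0.16 to 1.22 (limma adjusted p = 1.00, and 0.315 with the block). Necab2 is among the genes that the study chose on these samples, so its direction is no independent evidence.

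Pcp4, a small calmodulin-binding protein of neurons, gave 5765, 6838 and 5110 in wild type and 4853, 5890 and 4662 in heterozygous lenses. It was lower in each pair while the genotypes overlapped, with a difference of -0.20 ± 0.16, and ± 0.10 with the block. Uchl1, a ubiquitin hydrolase abundant in neurons, gave 2433, 3324 and 2516 in wild type and 1849, 3029 and 2221 in heterozygous lenses. It showed the same layout, with a difference of -0.24 ± 0.22, and ± 0.11 with the block.

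Rbpms, an RNA-binding protein used as a marker of retinal ganglion cells, gave 30.1, 30.8 and 23.7 in wild type and 65.8, 27.7 and 30.4 in heterozygous lenses. Heterozygous replicate 1 alone stood apart, with a difference of 0.44 ± 0.34, and the other 3 probe sets of the gene had differences of 0.02, -0.17 and 0.22. Sncg (gamma synuclein) had means of 16.3 ± 5.84 and 18.1 ± 11.0 (SD, n = 3), and Sncb (beta synuclein) of 14.0 ± 2.86 and 12.4 ± 0.875, in wild type and heterozygous lenses. Among all 39 genes, 17 had over 1 probe set, and for 9 of these all probe sets lay on the same side of 0.

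A longer list of 77 neuronal genes outside the 39 was read in the same way, of which 58 were measured and 24 had a median signal of at least 50. Their median difference was 0.03 with 32 above 0. At an unadjusted limma p under 0.05, 2 were higher and 3 lower (3.45% and 5.17%), beside 1.12% and 1.12% of all genes. After adjustment 0 passed. With the block 8 were higher and 7 lower, beside 5.31% and 4.52% of all genes, and again 0 passed after adjustment. The 3 with the smallest p above 0 were Stmn3, a stathmin that binds tubulin, Syngr1, a vesicle protein, and Dpysl5, a further collapsin response mediator, with differences of 0.78 ± 0.21, 0.41 ± 0.17 and 0.43 ± 0.21. Syngr1, at 10.6, 9.38 and 10.6 in wild type and 17.0, 12.1 and 12.1 in heterozygous lenses, was near background, while Dpysl5 gave 35.8, 24.8 and 26.5 and 48.2, 35.7 and 33.3 with overlap. Stmn3 gave 283, 171 and 234 in wild type and 346, 428 and 386 in heterozygous lenses, above background. Neither Stmn3 nor Syngr1 overlapped between genotypes. Of the 58, 4 lay higher without overlap and 4 lower, beside 2.57% and 3.49% of all genes. The 3 with the smallest p below 0 were also brighter than background and did not overlap between genotypes.

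These were Elavl4, a neuronal RNA-binding protein, Ank3, the ankyrin of the axon initial segment, and Tubb4a, a further beta tubulin. Ank3 gave 860, 784 and 877 in wild type and 642, 535 and 663 in heterozygous lenses, a difference of -0.46 ± 0.13 (limma adjusted p = 1.00). Tubb4a gave 117, 141 and 126 in wild type and 81.2, 94.6 and 102 in heterozygous lenses, a difference of -0.47 ± 0.14 (limma adjusted p = 1.00). The difference of Elavl4 was -0.50 ± 0.13. The study also names Neurod1, a transcription factor of neurons, Epha3, an axon guidance receptor, and Pygb, brain glycogen phosphorylase, as neuronal genes chosen on these samples. Their differences were 0.69 ± 0.17, 0.49 ± 0.12 and 0.38 ± 0.13, each higher in 3 of 3 pairs, beside 14.4% of all genes. Because of that choice their direction, as for Necab2, is no independent evidence.

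Markers of the retina and of other cells near the lens varied between samples beside these genes. In a bulk sample, fewer cells of a type and less RNA per cell cannot be told apart. The 13 measured bipolar and photoreceptor markers summed to 360, 321 and 316 in wild type and 613, 642 and 350 in heterozygous lenses. Of these 13, 8 (61.5%) were highest in heterozygous replicate 2, beside 15.9% of all genes. That sample was the highest for 12 of the 39 neuronal genes, of which 10 had a median signal under 50. The largest part of the summed signal of the 13 markers was Otx2, at 194, 156 and 156 in wild type and 442, 411 and 185 in heterozygous lenses. Of the 13 markers, 9 had medians at or below the highest olfactory receptor median. The transcription factor Crx gave 18.2, 14.2 and 13.5 in wild type and 18.3, 35.7 and 14.5 in heterozygous lenses, so that heterozygous replicate 2 stood apart as for Snap25 and Scg3. The part of retinal RNA in these differences was not tested.

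The 8 measured retinal ganglion cell markers summed to 646, 392 and 389 in wild type and 924, 552 and 508 in heterozygous lenses, with replicate 1 the highest of each genotype, and 4 of the 8 were at or below the highest olfactory receptor median. The largest part of each sum was Ebf1, at 267, 185 and 140 in wild type and 490, 207 and 186 in heterozygous lenses. The differences of the 8 had a median of 0.24, with 5 above 0 and 3 below. Atoh7, a transcription factor of retinal ganglion cell precursors, gave 96.2, 30.3 and 37.8 in wild type and 169, 68.7 and 81.4 in heterozygous lenses. It was higher in 3 of 3 pairs, beside 14.4% of all genes, while the genotypes overlapped. Its difference was 1.03 ± 0.52 (limma adjusted p = 1.00, and 0.196 with the block). The 9 amacrine and horizontal cell markers summed to between 2524 and 3892 with overlap, most of it from Slc6a9 (1418 to 2914). Prox1, which is also on the lens list, gave 259 to 634. Of these 9, 4 were at or below the highest olfactory receptor median. The 11 retinal progenitor and glial markers summed to between 5035 and 6995, most of it from Glul. The differences of the latter 11 had a median of -0.05, with 5 above 0 and 6 below. Within that list Fgf15, a growth factor of retinal progenitors, gave 233, 57.4 and 50.8 in wild type and 746, 220 and 207 in heterozygous lenses. It was higher in 3 of 3 pairs while the genotypes overlapped, with a difference of 1.88 ± 0.73 (limma adjusted p = 1.00, and 0.0357 with the block). None of the 39 neuronal genes passed the adjusted threshold in that fit. The 8 endothelium markers summed to 1823, 722 and 770 in wild type and 3303, 938 and 1003 in heterozygous lenses. The largest part was Flt1 in replicate 1 of both genotypes (914 and 1854) and Tek in the other samples (421 to 617). All 8 markers were highest in heterozygous replicate 1. Of the 39 genes, Stx1a, Rab3a, Gad1, Rbpms and Necab2 (12.8%) were highest in that sample, beside 18.5% of all genes. Of 11 peripheral nerve and Schwann cell markers 4 were measured, and the Schwann cell factor Sox10 lay between 10.5 and 14.4 in the 6 samples. Prph lay between 15.9 and 19.4, and Pmp22 between 3871 and 4780. Tac1 gave 400, 181 and 323 in wild type and 257, 143 and 216 in heterozygous lenses, with overlap. It was lower in 3 of 3 pairs, beside 17.6% of all genes, with a difference of -0.52 ± 0.35 (limma adjusted p = 0.318 with the block). The macrophage markers summed to between 135 and 611, and 3 of the 8 were highest in heterozygous replicate 1 and 3 in heterozygous replicate 2. The pigment cell markers summed to between 527 and 1346, and 4 of the 5 were highest in wild type replicate 1. The part of these cells in the differences of the neuronal genes was not tested.

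**Figure D4:**
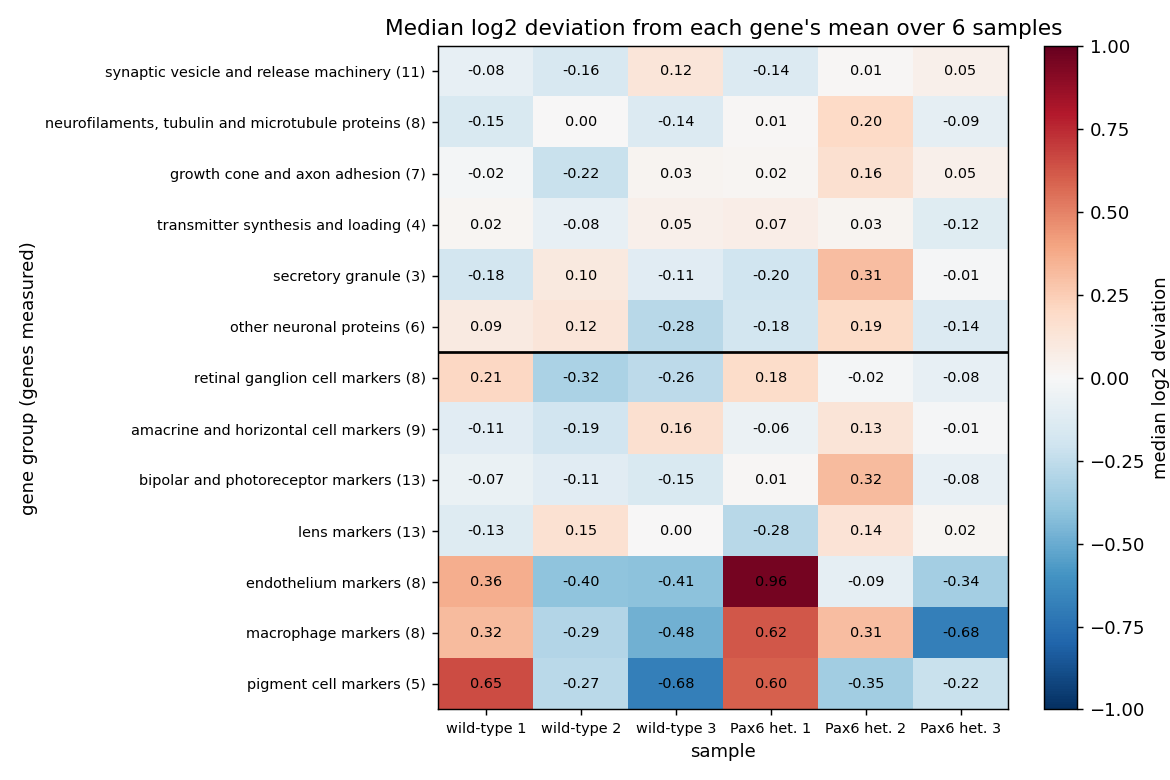
Median log2 deviation from each gene's mean over the 6 samples (blue below 0, red above 0), for the 6 groups of the 39 genes above the line and for marker lists of the retina, lens and other cells below it, with the number of genes measured. Heterozygous replicate 2 is the highest sample for the secretory granule genes (0.31) and for the bipolar and photoreceptor markers (0.32), and heterozygous replicate 1 for the endothelium markers (0.96).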

How the data were processed

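Total RNA (50 ng) was amplified and hybridized to Affymetrix arrays. The authors normalized the arrays by RMA (version not given in the sources used here) and deposited linear signal intensities, which were taken to log2 with no further scaling. RMA leaves some background in dim values, which draws their ratios toward 1. The 64 control probe sets were left out. Of the others, 20380 had 1 gene symbol, 691 several and 1555 none, and 20351 matched a RefSeq gene by Entrez number. Depth does not apply to arrays, and their number limits the precision.

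Genotypes were compared with limma 3.58.1 (lmFit, eBayes) in R 4.3.3 and adjusted over all 22626 probe sets by Benjamini-Hochberg at 0.05. Deviations from the genotype means correlated at 0.645, 0.734 and 0.604 between same-numbered samples. Between others they ran from -0.496 to -0.0751, which follows in part from centring each genotype on its mean of 3 samples. Because of the values between same-numbered samples they were treated as pairs, although the sources do not say what they share. Figures used matplotlib 3.10.9 in Python 3.11.15.

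The members and lists were chosen with earlier results of these data known. All members are named, with every sample given for those whose median signal reached 50 or whose unadjusted p was under 0.05, and for further members chosen after their values were seen. Of the further neuronal genes, the 3 with the smallest p in each direction are named. Alternatives tried were a t-test as in the methods (log2 and linear), quantile normalization, median centring, signal bounds of 50 and 100, a trended robust prior, array weights, the replicate block, the mean of a gene's probe sets, 64 added before log2, and leaving out each sample.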

Additional observations from a re-analysis of the deposited data

How the results depend on the processing

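The count of 39 neuronal genes higher in heterozygous lenses at an unadjusted p under 0.05, 2 in the fit reported, was 1 with the methods' t-test (log2 values), where Gad1 passed and neither Necab2 nor Crmp1 did, 1 among the 12 genes with a median signal of at least 50, 0 among the 8 with at least 100, 1 with 64 added before log2, and between 0 and 3 when a sample was left out. With the replicate number as a block it was 4. At the same unadjusted threshold the block also moved the further neuronal genes from 2 higher and 3 lower to 8 and 7, and brought in Rcor2 and Pax6. Over all genes the block moved the shares from 1.12% higher and 1.12% lower to 5.31% and 4.52%. The block also brought Fgf15 past the adjusted threshold. It changed no call on the 39 genes after adjustment. The counts of lower genes and of genes past the adjusted threshold were 0 in each alternative run. The median difference, 0.06, became -0.10 among the 8 genes with a median signal of at least 100, which are fewer genes, and lay between -0.01 and 0.14 when a sample was left out. The count higher in 3 of 3 pairs, 8 of 39, was 6 under quantile normalization, median centring or the mean of probe sets, and 3 of the 12 and 1 of the 8 brighter genes.

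Of 566 values of single genes under the alternatives, 530 kept their direction and 36 changed sign, in 22 genes whose reported difference was at most 0.46 in size. With array weights Syt1 and Sncg were at -0.01, and with the mean of its probe sets Syp was at 0.00. The other changes of sign came from leaving out a sample. The ranges were -0.08 to 0.11 for Syt1, -0.09 to 0.41 for Stx1a, -0.32 to 0.22 for Vamp2, -0.07 to 0.02 for Cplx1, -0.26 to 0.37 for Sv2a, -0.10 to 0.05 for Syn1, -1.19 to 0.50 for Syn2 and -0.17 to 0.35 for Rab3a. They were -0.74 to 0.07 for Nefl, -0.07 to 0.23 for Nefm, -0.06 to 0.15 for Nefh, -0.10 to 0.15 for Map2, -0.02 to 0.24 for Mapt, -0.04 to 0.12 for Basp1, -0.03 to 0.24 for Dpysl3, -0.12 to 0.31 for L1cam and -0.23 to 0.03 for Nrcam. For Gad2 the range was -0.13 to 0.03, for Chga -0.08 to 0.15, for Scg2 -0.17 to 0.10 and for Sncg -0.40 to 0.32. Why these values moved was not tested, beyond the fewer samples or genes in each fit. With 3 samples a genotype and 27 of the 39 genes at a median signal under 50, small differences of dim genes could not be told from background.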
